A study of Mus musculus with 10 samples.

Results

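The 31 genes that encode the core and regulatory subunits of the constitutive proteasome were followed in the mouse hippocampus after ablation of meningeal lymphatic vessels. They were selected by gene symbol: Psma1 to Psma7, Psmb1 to Psmb7, Psmc1 to Psmc6, and Psmd1, Psmd2, Psmd3, Psmd4, Psmd6, Psmd7, Psmd8, Psmd11, Psmd12, Psmd13 and Psmd14. All 31 were found among the 27343 genes of the deposited table, and all 31 were among the 15938 genes with enough counts to be tested. Both groups were male, wild-type C57BL/6J mice aged 2 months. The treated group (libraries 1 to 5) received Visudyne, a formulation of the photosensitizer verteporfin, into the cisterna magna, and the control group (libraries 6 to 10) received vehicle by the same route. Red light of 689 nm was then applied over the intact skull in both, and injection and light were repeated 2 weeks later. A further 2 weeks on the mice did the Morris water maze, a spatial learning test, and whole hippocampus was collected 3 days afterwards. The treatment label of the vehicle samples names vehicle alone, whereas their titles and the design text place them in the maze as well. The labels do not say in words that each library came from its own mouse, so the p-values measure the spread between these 5 and 5 samples.

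The proteasome is the protease that degrades most short-lived and damaged proteins tagged with ubiquitin. Its barrel-shaped core stacks outer rings of alpha subunits, which gate the entrance, on inner rings of beta subunits, of which Psmb5, Psmb6 and Psmb7 carry the active sites. A regulatory cap binds the barrel: its base holds the ring of AAA ATPases Psmc1 to Psmc6, which unfolds substrates, and its lid holds Psmd14, the enzyme that takes ubiquitin off as the substrate enters. In neurons the proteasome turns over synaptic proteins, and its activity is needed for some forms of lasting synaptic plasticity and memory.

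The coding sequences of these genes differ widely in base composition, and the results below ran closely along that property, so the first 150 coding bases of 4 members are shown with every G and C in capitals. They come from the principal transcript of GENCODE M21 on GRCm38, read 5′ to 3′ from the start codon. Psmd3 had the lowest fold of the 31 (0.612), and Psmc6 and Psma3 had the highest. Psmb5 (0.653) was also low, but Psmb3 (0.640) and Psmd4 (0.651), which are not printed, were lower still.

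Psmd3: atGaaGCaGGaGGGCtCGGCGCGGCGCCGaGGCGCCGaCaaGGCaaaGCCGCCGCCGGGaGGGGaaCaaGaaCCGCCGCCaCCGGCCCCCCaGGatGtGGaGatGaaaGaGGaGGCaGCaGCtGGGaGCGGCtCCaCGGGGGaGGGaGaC
Psmb5: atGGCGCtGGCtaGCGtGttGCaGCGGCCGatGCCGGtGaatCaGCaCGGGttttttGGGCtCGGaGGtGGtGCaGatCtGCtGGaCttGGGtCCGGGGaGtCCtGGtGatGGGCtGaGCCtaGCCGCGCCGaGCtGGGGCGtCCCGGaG
Psmc6: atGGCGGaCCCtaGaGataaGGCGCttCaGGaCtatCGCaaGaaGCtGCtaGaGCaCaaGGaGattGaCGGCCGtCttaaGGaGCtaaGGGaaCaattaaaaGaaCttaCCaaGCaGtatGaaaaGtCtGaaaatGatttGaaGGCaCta
Psma3: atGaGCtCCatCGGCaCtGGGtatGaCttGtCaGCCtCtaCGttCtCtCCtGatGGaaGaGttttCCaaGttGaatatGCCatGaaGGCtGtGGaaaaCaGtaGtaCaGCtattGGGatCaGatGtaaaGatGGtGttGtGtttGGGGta

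Of these 150 bases, 71.3% were G or C in Psmd3 and 66.7% in Psmb5, against 44.7% in Psmc6 and 45.3% in Psma3. Over the whole coding sequence the G and C share was 57.4%, 57.8%, 41.8% and 42.4% in the same order. The spread was wider at the third codon position, where most base changes leave the amino acid as it is: 72.6% in Psmd3, 66.3% in Psmb5, 36.0% in Psmc6 and 36.5% in Psma3. Other members contrasted less in their first 150 bases. The G and C share there was 53.3% in Psmb3 and 54.0% in Psmd4, both called lower. It was 63.3% in Psmd6 and 61.3% in Psmd12, neither of them called.

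Each library held 24752362 to 41073906 counts. A member had between 86 and 5150 counts in a library. The spread between libraries of a group was at its median 3.08 times counting error in the Visudyne group and 3.25 times in the vehicle group. It was under 1.5 times counting error for 5 members in the Visudyne group and 3 in the vehicle group, Psmd7 among them in both (CVs of 4.18% and 3.801%, against 4.03% and 3.63% from counting). Together the 31 members made up 0.114% to 0.150% of all counts in the Visudyne libraries and 0.148% to 0.170% in the vehicle libraries. The mitochondrial rRNA gene mt-Rnr2 alone took 33.6% to 39.7% of all counts in the Visudyne libraries and 32.2% to 35.7% in the vehicle libraries. Of the counts outside mitochondrial genes the members made up 0.219% to 0.261% and 0.264% to 0.285%. The dissection was checked by marker genes, in CPM (counts relative to the scaled library total). Of 8 hippocampal neuron markers, Prox1, Zbtb20 and Neurod6 were the most abundant, with medians of 107, 485 and 208 CPM. In that list 1 was lower, Wfs1, and the median log2 fold change was -0.20, with summed levels of 677 to 1160 CPM in the Visudyne libraries and 744 to 876 CPM in the vehicle libraries. Of 5 cerebellum and thalamus markers, Pcp2 and Gabra6 had medians of 0.317 and 0.0775 CPM and Lhx9 had 20.9 CPM. Lhx9 was higher in the Visudyne group, and the list summed to 23.9 to 34.1 CPM against 17.4 to 24.3 CPM. Of 6 oligodendrocyte markers 5 were tested and 3 were lower in the Visudyne group, with summed levels of 2075 to 2464 CPM against 2168 to 2900. Of 6 general neuron markers 1 was higher and 1 lower, with a median log2 fold change of 0.12. They summed to 3083 to 3641 CPM against 2762 to 3178. Of 6 microglia markers 1 was higher and 1 lower, with 188 to 222 CPM against 163 to 192. Of 5 astrocyte markers 0 were called, and of 5 endothelial and mural markers 1 was lower. Of 6 choroid plexus markers 1 was called higher, and 2 Visudyne libraries stood apart with summed levels of 418 CPM (Visudyne 3) and 302 CPM (Visudyne 5), where vehicle libraries ranged from 22.9 to 33.9 CPM. In bulk tissue, fewer cells of a type and less RNA per cell cannot be told apart.

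Of the 31 proteasome genes, 14 were lower in the Visudyne hippocampus, 0 were higher and 17 were not called, by edgeR's quasi-likelihood test at an adjusted p under 0.05. Among all tested genes, 11.5% were called lower and 8.98% higher. The members' median log2 fold change was -0.18, from -0.71 for Psmd3 to 0.17 for Psma3, and the median over all tested genes was 0.01. For 21 members every Visudyne library lay below the vehicle mean, as it did for 27.0% of all tested genes. In 10 members the groups did not overlap, with Visudyne the lower in each, where 7.22% of all tested genes had Visudyne lower and 5.25% had it higher without overlap; 8 of these 10 were called. How many members passed the test turned on which libraries were in it: leaving out Visudyne 1, 2, 3 or 4 gave 6, 8, 0 and 2 members lower, and leaving out vehicle 6, 7 or 9 gave 0, 8 and 1. Calls over all genes dropped as well, to 4.22%, 6.06%, 0.031% and 3.70% lower without Visudyne 1 to 4, and to 0.031%, 5.55% and 0.796% without vehicle 6, 7 and 9. In the fits with 0, 17 members (without Visudyne 3) and 16 (without vehicle 6) had an unadjusted p under 0.05. No member was called in all 10 fits that lack a library. Leaving out Visudyne 3 and Visudyne 5, the libraries high in choroid plexus markers, left 13 members lower, where 10.6% of all tested genes were. The part of the other marker differences in these results was not tested.

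**Figure D1:**
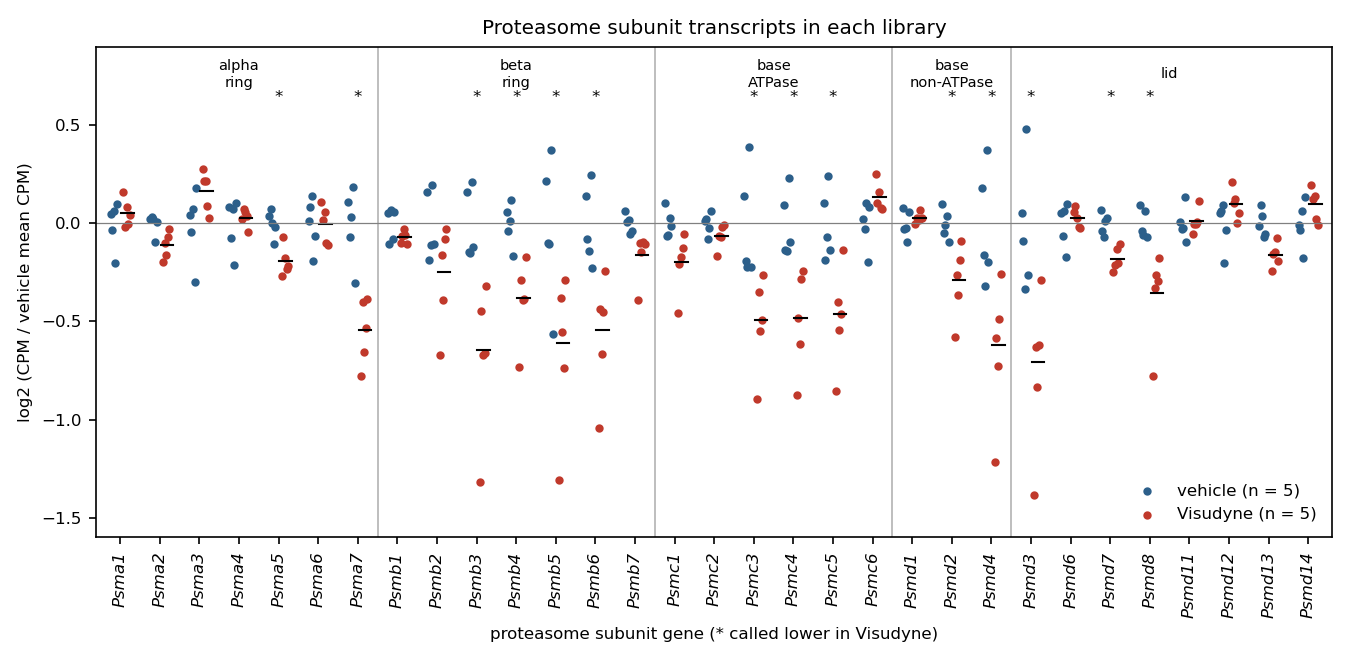
Level of each of the 31 members in every library, as log2 of CPM over that gene's vehicle mean CPM, with vehicle libraries in blue, Visudyne libraries in red, a bar at the Visudyne mean and an asterisk over the 14 members called lower. Visudyne 1 is the lowest red point for all 14 of these, and vehicle 9 is the highest blue point for 10 of them.

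In the beta ring 4 of 7 members were lower. All 7 lay below 0, with a median of -0.38 on the log2 scale. Psmb3, a structural beta subunit, measured 3.39, 6.21, 5.30, 5.35 and 6.78 CPM in Visudyne 1 to 5 and 9.43, 7.64, 7.61, 9.79 and 7.76 CPM in vehicle 6 to 10. The groups did not overlap, and the lowest value was that of Visudyne 1. The means were 5.41 ± 1.29 and 8.45 ± 1.07 CPM (SD, n = 5 each), a fold of 0.640, or -0.64 on the log2 scale (SE 0.16, edgeR adjusted p = 0.0278). Psmb4 (ENSMUSG00000005779, chromosome 3, 94884093 to 94886961, minus strand, GRCm38), another structural subunit of this ring, measured 24.0, 32.6, 30.4, 30.5 and 35.4 CPM in Visudyne 1 to 5 and 41.6, 38.8, 40.2, 43.3 and 35.5 CPM in vehicle 6 to 10. The groups were separate, although Visudyne 5 and vehicle 10 nearly touched. The fold was 0.767 (log2 -0.38, SE 0.094, edgeR adjusted p = 0.0273).

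The 3 catalytic subunits were all below 0, and 2 of them were called. Psmb6, which cuts after acidic residues, measured 6.78, 10.3, 8.81, 10.2 and 11.8 CPM in Visudyne 1 to 5 and 15.4, 13.3, 12.7, 16.6 and 11.97 CPM in vehicle 6 to 10. All Visudyne values lay below all vehicle values, by a narrow margin. Its means were 9.60 ± 1.91 and 13.99 ± 1.94 CPM, a fold of 0.686 (log2 -0.54, SE 0.14, edgeR adjusted p = 0.0292). Psmb5, the subunit that cuts after hydrophobic residues and the main target of proteasome inhibitor drugs, measured 3.74, 7.10, 6.29, 5.56 and 7.56 CPM in Visudyne 1 to 5 and 10.7, 8.64, 8.58, 12.01 and 6.26 CPM in vehicle 6 to 10. The ranges overlapped, because vehicle 10 lay among the Visudyne values. The fold was 0.653 (log2 -0.62, SE 0.20, edgeR adjusted p = 0.0464). Psmb7, which cuts after basic residues, was far more abundant, at 49.3, 60.3, 58.6, 60.5 and 60.2 CPM in Visudyne 1 to 5 and 67.6, 65.0, 65.5, 62.4 and 62.9 CPM in vehicle 6 to 10. Its groups did not overlap either, but at a fold of 0.893 it was not called (edgeR adjusted p = 0.0797). Its exons share 405 bases with Nek6 on the opposite strand, and the sources used here do not give the strand setting of the counting. The remaining structural subunits, Psmb1 at a fold of 0.952 and Psmb2 at 0.843, were not called.

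The alpha ring had 2 of 7 members lower, and its median log2 fold change was -0.0025. Psma7 (ENSMUSG00000027566, chromosome 2, 180036374 to 180042433, minus strand) had the smallest p of all members. Its levels were 14.8, 19.3, 16.1, 17.6 and 19.5 CPM in Visudyne 1 to 5 and 27.4, 24.2, 26.1, 28.9 and 20.6 CPM in vehicle 6 to 10. The groups did not overlap, and vehicle 10 was the vehicle library nearest to the Visudyne range. The means were 17.5 ± 2.01 and 25.4 ± 3.21 CPM, a fold of 0.685 (log2 -0.54, SE 0.10, edgeR adjusted p = 0.0216). Psma5, an alpha ring subunit, measured 34.1, 39.2, 36.4, 35.0 and 35.3 CPM in Visudyne 1 to 5 and 42.3, 43.3, 41.3, 38.3 and 40.6 CPM in vehicle 6 to 10. Only Visudyne 2 and vehicle 9 overlapped, and the fold was 0.876 (log2 -0.19, SE 0.056, edgeR adjusted p = 0.0368). Psma2 had 58.0, 61.97, 59.5, 63.4 and 65.3 CPM in Visudyne 1 to 5 and 67.5, 68.1, 67.7, 62.3 and 66.9 CPM in vehicle 6 to 10, and was not called at a fold of 0.927 (edgeR adjusted p = 0.139). Here vehicle 9, high for most called members, was the lowest vehicle library. Psma3 gave the highest fold of all members, 1.12, and was not called; its 105, 101, 101, 92.4 and 88.6 CPM in Visudyne 1 to 5 overlapped the 89.6, 84.4, 91.4, 70.6 and 98.6 CPM of vehicle 6 to 10. The folds of Psma1, Psma4 and Psma6 were 1.04, 1.02 and 0.998, none of them called.

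Among the ATPases of the base, 3 of 6 were lower, and the median over the 6 was -0.33 on the log2 scale. Psmc4 (ENSMUSG00000030603, chromosome 7, 28041707 to 28050101, minus strand) measured 15.2, 19.96, 18.2, 22.9 and 23.6 CPM in Visudyne 1 to 5 and 29.8, 25.4, 25.3, 32.8 and 26.2 CPM in vehicle 6 to 10. Its groups did not overlap, and the fold was 0.716 (log2 -0.48, SE 0.12, edgeR adjusted p = 0.0274). Psmc5 measured 17.8, 24.3, 22.1, 23.3 and 29.3 CPM in Visudyne 1 to 5 and 34.6, 28.3, 30.6, 38.1 and 29.2 CPM in vehicle 6 to 10. Visudyne 5 alone reached into the vehicle range, and the fold was 0.726 (SE on the log2 scale 0.12, edgeR adjusted p = 0.0303). Psmc3 measured 10.2, 15.0, 13.0, 13.6 and 15.9 CPM in Visudyne 1 to 5 and 21.0, 16.7, 16.3, 24.9 and 16.3 CPM in vehicle 6 to 10. Its groups did not overlap, with vehicle 6 and vehicle 9 well above the other vehicle libraries, and the fold was 0.710 (SE on the log2 scale 0.14, edgeR adjusted p = 0.0354). Psmc1 and Psmc2 had folds of 0.873 and 0.957 and were not called. Psmc6, at 118, 106, 110.4, 104 and 104 CPM in Visudyne 1 to 5 and 100.3, 96.8, 106, 86.2 and 105 CPM in vehicle 6 to 10, had a fold of 1.10 and was not called either (edgeR adjusted p = 0.144). All 6 proteins sit in the ring in equal numbers, while the folds of their transcripts ran from 0.710 to 1.10.

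The base also holds proteins that are not ATPases, and 2 of the 3 were lower. Psmd4, a ubiquitin receptor, measured 7.69, 11.9, 10.8, 12.8 and 15.0 CPM in Visudyne 1 to 5 and 20.3, 16.0, 14.4, 23.3 and 15.6 CPM in vehicle 6 to 10. Visudyne 5 and vehicle 8 overlapped, and the fold was 0.651 (log2 -0.62, SE 0.17, edgeR adjusted p = 0.0332). Psmd2, a large scaffold subunit, measured 70.99, 88.5, 82.5, 93.2 and 99.6 CPM in Visudyne 1 to 5 and 114, 103, 106, 109 and 99.4 CPM in vehicle 6 to 10. Visudyne 5 lay just above vehicle 10, and the fold was 0.819 (log2 -0.29, SE 0.083, edgeR adjusted p = 0.0362). Psmd1, the other large scaffold, measured 112, 114, 113, 117 and 114 CPM in Visudyne 1 to 5 and 118, 109.7, 110.3, 105 and 117 CPM in vehicle 6 to 10. Its Visudyne values lay inside the vehicle range, and it was not called at a fold of 1.02 (SE on the log2 scale 0.050, edgeR adjusted p = 0.711).

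In the lid 3 of 8 members were lower, with a median log2 fold change of -0.074. Psmd8, a structural lid subunit, measured 23.0, 31.4, 32.8, 32.2 and 35.0 CPM in Visudyne 1 to 5 and 42.2, 38.4, 37.9, 41.3 and 37.6 CPM in vehicle 6 to 10. Its groups did not overlap, and the fold was 0.783 (log2 -0.35, SE 0.096, edgeR adjusted p = 0.0318). Psmd3 (ENSMUSG00000017221, chromosome 11, 98682554 to 98695979, plus strand), a structural lid subunit with the highest transcript GC of the members, measured 2.70, 4.55, 3.96, 4.58 and 5.76 CPM in Visudyne 1 to 5 and 7.31, 6.62, 5.59, 9.85 and 5.87 CPM in vehicle 6 to 10. Vehicle 8 fell below Visudyne 5, so the groups overlapped, and the fold was 0.612 (log2 -0.71, SE 0.20, edgeR adjusted p = 0.0338). Psmd7, the inactive partner of the deubiquitinase Psmd14, measured 17.8, 18.2, 19.3, 18.3 and 19.6 CPM in Visudyne 1 to 5 and 22.1, 20.5, 20.1, 21.3 and 21.5 CPM in vehicle 6 to 10. The change was small but the groups did not overlap, with means of 18.6 ± 0.778 and 21.1 ± 0.802 CPM and a fold of 0.883 (log2 -0.18, SE 0.056, edgeR adjusted p = 0.0427). Psmd14 itself had a fold of 1.07 and was not called. Psmd6, Psmd11, Psmd12 and Psmd13 had folds of 1.02, 1.01, 1.07 and 0.894 and were not called, although the groups of Psmd13 did not overlap (edgeR adjusted p = 0.0571).

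The steady levels of the members differed far more than the groups did. Per kilobase of principal transcript, vehicle means ran from 3.28 CPM for Psmd3 to 68.0 CPM for Psma4, a 20.7-fold range. Psma4, Psmb7, Psma1, Psma6, Psmd14, Psmd6, Psmc6 and Psmc1 formed the upper 8, at 43.2 CPM per kilobase or more. In this order 27 of 30 neighbouring pairs overlapped in their vehicle ranges. The 3 that did not were Psma4 above Psmb7, Psmc1 at 43.2 above Psmb1 at 37.2, and Psmd11 at 7.21 above Psmd3 at 3.28. Of the 5 members at the bottom, Psmd3, Psmb5 at 10.3, Psmb3 at 11.03 and Psmc3 at 11.7 CPM per kilobase were among those called lower, and Psmd11 was not called. A level per length depends on the transcript chosen as the principal one. On the log2 scale these levels also ran with transcript GC (Pearson r -0.62, Spearman rho -0.66), and the part of GC in them was not tested.

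**Figure D2:**
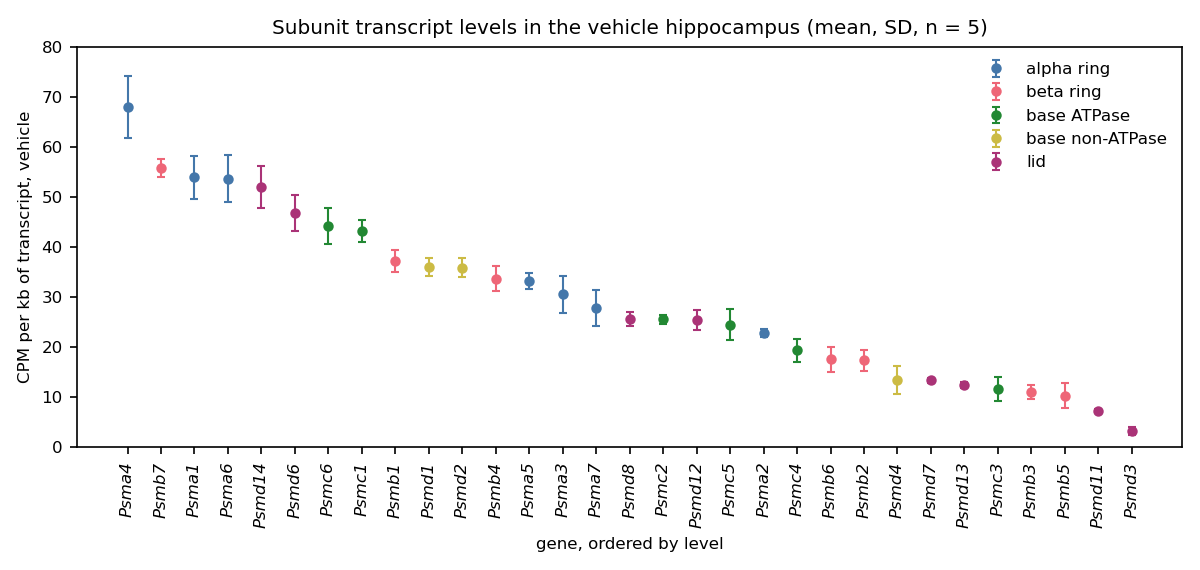
Vehicle level of each of the 31 members in CPM per kilobase of principal transcript (mean and SD, n = 5), ordered by level and coloured by place in the complex. Means run from 68.0 for Psma4 to 3.28 for Psmd3, and 27 of the 30 neighbouring pairs overlap in range.

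Which members were called followed their G and C content closely. Of the 14 members whose principal transcript was above 50% GC, 12 were lower, and of the 17 at or below 50%, 2 were lower, Psma5 at 49.2% and Psmd7 at 49.7%. The 2 above 50% that were not called were Psmb2 at 51.0% and Psmd13 at 53.4%. The called members ranged from 49.2% to 58.3% GC with a median of 53.6%, and the others from 37.0% to 53.4% with a median of 46.6%. At the third codon position the medians were 64.3% and 49.1%. The 9 members with a fold above 1 lay between 37.0% and 47.9% GC; they fell below 1 when libraries were scaled by total counts alone, a scaling that moved the all-gene median to -0.19 and the members' count to 21 lower and 0 higher (3902 lower and 196 higher over all genes, against 1829 and 1432 otherwise). Across the 31 members the log2 fold change had a Pearson r of -0.87 and a Spearman rho of -0.92 with transcript GC, and of -0.90 and -0.91 with coding GC. It had weaker relations with log2 transcript length (r 0.45, rho 0.42) and with the log2 vehicle level per kilobase (r 0.62, rho 0.60), which itself ran with GC (r -0.62, rho -0.66). These points share the same 10 libraries and are no independent replicates. The relation was general, with r -0.60 and rho -0.69 over the 15829 tested genes of known GC.

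**Figure D3:**
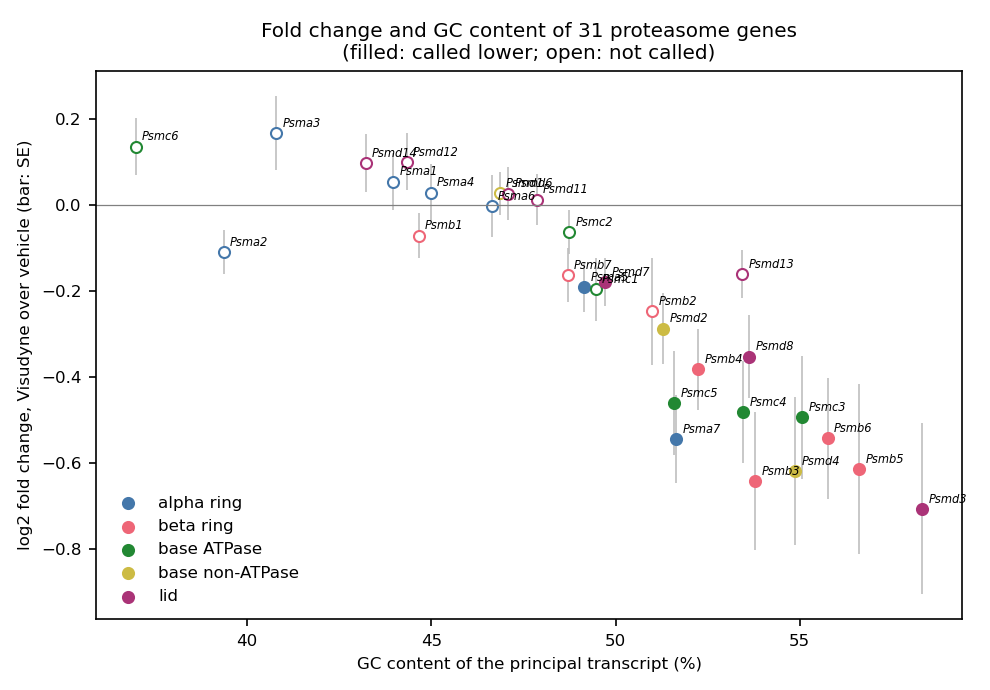
Log2 fold change of each member, Visudyne over vehicle with its standard error, against the GC percentage of its principal transcript, coloured by place in the complex. The 14 members called lower (filled) lie at 49.2% GC and above, and the 9 with a log2 fold change above 0 lie at 47.9% and below.

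The libraries themselves differed in how level depended on GC, and this split nearly followed the groups. The slope of a library's log2 CPM, relative to each gene's mean over the libraries, per percentage point of GC was -0.0519, -0.0114, -0.0218, -0.0131 and 0.000944 in Visudyne 1 to 5. It was 0.0290, 0.0155, 0.0151, 0.0394 and -0.00178 in vehicle 6 to 10. Only Visudyne 5 and vehicle 10 crossed. The mean centred log2 level of the 31 members took a like order: -0.29, -0.053, -0.11, -0.083 and 0.0037 in Visudyne 1 to 5, and 0.19, 0.063, 0.083, 0.15 and 0.054 in vehicle 6 to 10. The library with the steepest negative slope, Visudyne 1, was the lowest, and those with the steepest positive slopes, vehicle 9 and vehicle 6, were the highest. With each library's slope as a covariate, 0 members were lower by edgeR, 3 had an unadjusted p under 0.05 and the members' median log2 fold change was -0.037. In that fit 0 of all tested genes were lower and 0 higher, and 1045 had an unadjusted p under 0.05. Leaving out Visudyne 1 and vehicle 9, the extremes of slope, left 0 members lower, with a median of -0.13 and 18 members at an unadjusted p under 0.05. Over all genes 0.264% were lower in that fit. Since slope and treatment lie so close together in these 10 libraries, their parts in the called differences cannot be told apart.

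**Figure D4:**
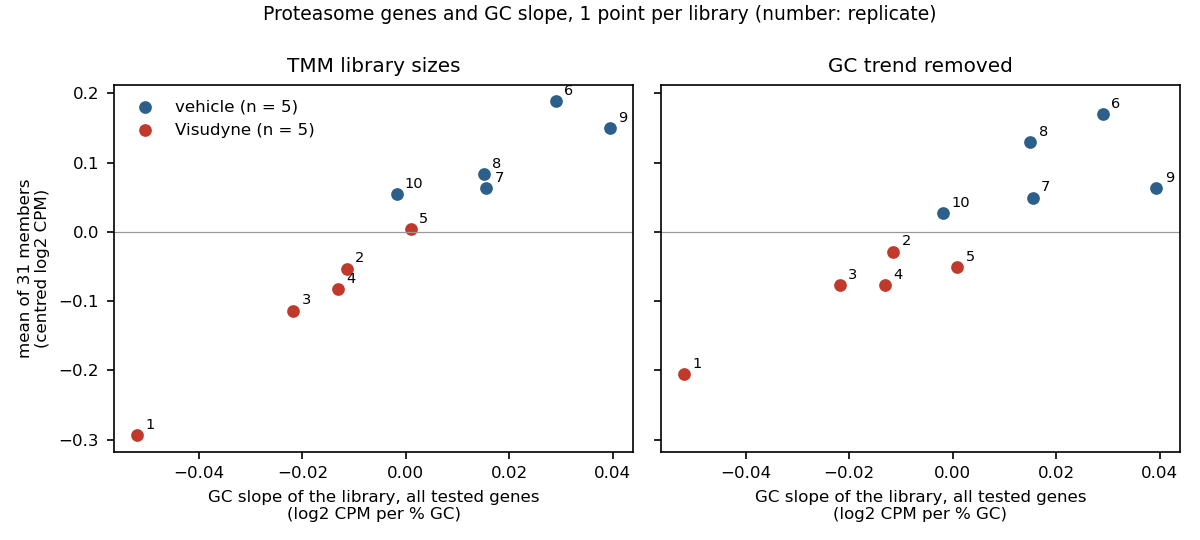
Mean centred log2 CPM of the 31 members in each numbered library against that library's GC slope (log2 CPM per percentage point of GC), with TMM scaling on the left and the GC trend removed on the right. On the left the means run from -0.29 at a slope of -0.0519 to 0.19 at a slope of 0.0290, and in both panels all Visudyne means lie below all vehicle means.

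After a smooth trend of level on GC had been taken out of each library, 2 members were lower by edgeR, Psma7 (log2 fold change -0.43, adjusted p = 0.0325) and Psma2 (-0.40, adjusted p = 0.0396). Among the 15829 genes in that fit 1.30% were called lower. The members' median was -0.18 again, where the median over all genes of that fit was -0.0057. Of the 31 members 30 lay below 0, the exception being Psmd13 at 0.051. Across the members the log2 fold change still ran with transcript GC after removal, though less closely (Pearson r -0.23, Spearman rho -0.43). The members richer in GC than the members' median had a median of -0.48 on the log2 scale before removal and -0.23 after it. The other 16 moved from 0.02 to -0.12, so low-GC members that had been near 0 now lay below it. Per library the mean centred level was -0.21, -0.029, -0.077, -0.077 and -0.051 in Visudyne 1 to 5, and 0.17, 0.050, 0.13, 0.063 and 0.027 in vehicle 6 to 10. These means did not overlap between groups. Which members were called depended on how GC was measured. When GC was taken from the longest transcript, 6 were lower (Psma2, Psmb3, Psmb6, Psmb7, Psmc2 and Psmc4; 1.76% of all genes), and Psma7 stood at -0.12 (adjusted p = 0.362). When it was pooled over all transcripts of a gene, 5 were lower (Psma2, Psma7, Psmb3, Psmb7 and Psmc2; 1.69% of all genes). With length taken out as well as GC, 3 were lower (Psma2, Psma7 and Psmc5; 1.38% of all genes). The longest and pooled measures were chosen after seeing the data.

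Visudyne 5 and vehicle 10, picked after the fact for their similar GC slopes, allowed a comparison of 1 library with 1 library, without a replicate check. Of the 31 members 25 were lower in Visudyne 5 and 6 higher, with a median difference of -0.055 on the log2 scale and a range from -0.20 to 0.25. Over all tested genes the median difference of this pair was 0.004. The 14 members called in the full comparison had a median of -0.049 here, with 11 below 0. The members not called had a median of -0.055. Visudyne 5 was the highest Visudyne library for 13 of the 14 called members, and vehicle 10 was the lowest vehicle library for 6. The choice of this pair therefore favoured a small difference in the called members, and no conclusion is drawn from it.

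**Figure D5:**
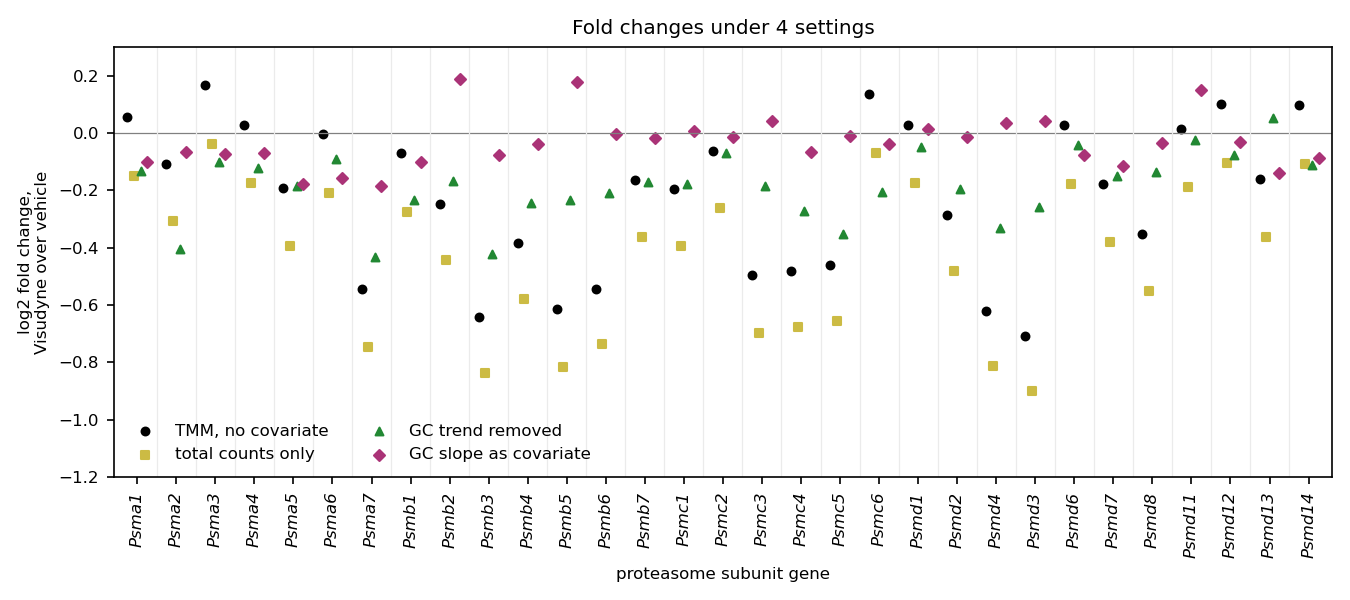
Log2 fold change of each of the 31 members, Visudyne over vehicle, under 4 settings: TMM without a covariate (circles), total counts only (squares), the GC trend removed (triangles) and the GC slope as covariate (diamonds). The medians over the members are -0.18, -0.38, -0.18 and -0.037, and with the GC slope as covariate Psmb2 and Psmb5 lie at 0.19 and 0.18.

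Inducible and tissue-restricted core subunits were scarce beside the constitutive ones. In the immunoproteasome Psmb8, Psmb9 and Psmb10 replace Psmb5, Psmb6 and Psmb7. Psmb8 measured 0.337 ± 0.180 CPM in the Visudyne group and 0.461 ± 0.145 CPM in the vehicle group and was not called. Psmb9 had 0 to 9 counts in a library and Psmb10 had 3 to 20, too few to pass the count filter of the edgeR test on all 10 libraries. Without Visudyne 3 and Visudyne 5, the libraries high in choroid plexus markers, Psmb10 passed the filter and was lower (log2 fold change -1.49, SE 0.44, edgeR adjusted p = 0.0446). In the other edgeR fits that kept it, Psmb10 was not called. The log2 ratio of Psmb8 to Psmb5 was -4.23 ± 0.509 and -4.31 ± 0.298 in the Visudyne and vehicle groups (difference 0.081, exact permutation p = 0.786). For Psmb9 to Psmb6 it was -6.48 ± 0.611 and -6.88 ± 1.36 (difference 0.40, exact permutation p = 0.706), where 1 vehicle library had no Psmb9 count and its ratio rests on the pseudocount of 0.5 counts. For Psmb10 to Psmb7 it was -8.33 ± 0.569 and -7.54 ± 0.538 (difference -0.79, exact permutation p = 0.0635). These tests were two-sided with 5 against 5 libraries, for which the smallest possible p is 0.00794. Adjusted over the 3 ratios, the exact p-values were 0.786, 0.786 and 0.190. Psmb10 (56.5% GC) and Psmb7 (48.7%) differ in GC. Their ratio was lowest in Visudyne 1 (-8.81) and highest in vehicle 9 (-6.90), the libraries with the extreme GC slopes. The part of the slope in this ratio was not tested. The thymic subunit Psmb11 and the testis subunit Psma8 had 1.26 and 0.439 CPM in the Visudyne group and 0.934 and 0.268 CPM in the vehicle group, and neither was called.

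Of 45 genes listed as working with the proteasome, 42 were tested, 9 were lower and 5 higher, where 11.5% and 8.98% of all tested genes were, with a median log2 fold change of -0.03. Without Visudyne 3, or without vehicle 6, 0 of them were called in either direction. Of the 5 activator and inhibitor genes, 1 was lower and 1 higher. Psme2, a subunit of the interferon-inducible activator ring, fell from 6.91 ± 0.604 to 5.05 ± 0.433 CPM (fold 0.731, edgeR adjusted p = 0.0238). Psme4, which encodes the large nuclear activator of the core, rose from 73.1 ± 5.30 to 88.6 ± 8.41 CPM (fold 1.21, edgeR adjusted p = 0.0303). Psme1, the partner of Psme2, stood at a fold of 0.890 and was not called. Of the 8 tested assembly chaperones 1 was lower, Pomp, the maturation factor of the core particle (fold 0.826, edgeR adjusted p = 0.0430). The chaperones Psmd9 and Psmg2 had folds of 0.874 and 1.10 and were not called.

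Of the 7 other proteins that bind the assembled proteasome, 2 were higher and 0 lower. Usp14, a deubiquitinase that trims ubiquitin chains on the cap, rose from 131 ± 13.7 to 162 ± 13.99 CPM (fold 1.24, edgeR adjusted p = 0.0303). Ecpas, a scaffold that ties core to cap, had a fold of 1.15 (edgeR adjusted p = 0.0369). Uchl5, another deubiquitinase of the cap, was not called at a fold of 1.27 (edgeR adjusted p = 0.0645). Among the 8 genes for shuttles and the Vcp unfoldase, 4 were lower and 1 higher. The shuttle Ubqln2 measured 75.1, 63.3, 71.4, 62.2 and 57.3 CPM in Visudyne 1 to 5 and 47.3, 49.4, 46.2, 46.5 and 47.9 CPM in vehicle 6 to 10. Its groups were well apart, and the fold was 1.39 (log2 0.47, SE 0.072, edgeR adjusted p = 0.0159). Ubqln4 at 0.834, Nploc4 at 0.832 and Vcp at 0.868 were among those lower, and of these Ubqln4 overlapped between groups.

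Of the 5 genes listed for control of the proteasome and its transcription, 1 was called. It was Zfand5, a zinc finger protein that binds and activates the proteasome and is no transcription factor, and it was higher at a fold of 1.26 (edgeR adjusted p = 0.0463). Nfe2l1, the factor that raises proteasome genes when proteasome activity is blocked, had a fold of 0.829 and was not called (edgeR adjusted p = 0.0689). Ngly1, which activates Nfe2l1, had a fold of 1.12 and was not called. Uba1, the main ubiquitin-activating enzyme, was lower at a fold of 0.758 (edgeR adjusted p = 0.0334). The ubiquitin gene Ubb had a fold of 0.755 and was not called. With the GC trend removed, 0 of the 42 related genes were lower and 1 was higher, Ubqln2 (log2 fold change 0.53, edgeR adjusted p = 0.0232). Over all 15829 genes of that fit 206 were lower and 191 higher. With the GC slope as covariate 0 related genes were called.

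Promoter sequence was compared for the 25 members found in RefSeq's promoter windows on GRCm38.p6, which reach from 250 bases before a transcript start to 50 after it. Nfe2l1 and its relatives bind antioxidant response elements, whose core was searched as TGACNNNGC on both strands. It was present in 4 of the 25 members, Psmb5, Psmb6, Psmc6 and Psmd12, and in 12.4% of all promoter windows. Psmb5 and Psmb6 were lower, while Psmc6 and Psmd12 were not called, so that 2 of 4 members with the core and 9 of 21 without it were lower. The windows of Psmb5 and Psmc6 are printed because these members share the core and had folds of 0.653 and 1.10. The core match is in capitals, and each window reads 5′ to 3′ on the gene's strand, chr14:54617946-54618245 on the minus strand for Psmb5 and chr14:45329574-45329873 on the plus strand for Psmc6.

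Psmb5 promoter: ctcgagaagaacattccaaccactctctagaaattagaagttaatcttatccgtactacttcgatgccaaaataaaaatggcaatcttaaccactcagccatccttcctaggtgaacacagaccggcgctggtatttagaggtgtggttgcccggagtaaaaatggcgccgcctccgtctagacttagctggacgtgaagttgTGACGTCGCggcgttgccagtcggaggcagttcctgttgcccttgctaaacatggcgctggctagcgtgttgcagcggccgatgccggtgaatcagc
Psmc6 promoter: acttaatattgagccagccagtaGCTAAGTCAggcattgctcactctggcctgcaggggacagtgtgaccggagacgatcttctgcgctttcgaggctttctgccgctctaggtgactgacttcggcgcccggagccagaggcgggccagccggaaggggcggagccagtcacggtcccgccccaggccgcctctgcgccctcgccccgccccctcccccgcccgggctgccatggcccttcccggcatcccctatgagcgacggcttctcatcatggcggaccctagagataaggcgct

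In Psmb5 the match lies near the transcript start and reads forward, and in Psmc6 it lies at the far end of the window and reads on the opposite strand. The ETS core CCGGAAG was in 10 of the 25 members, against 8.86% of all windows, and 2 of these 10 and 9 of the 15 others were lower. The CCAAT box was in 10 members (37.4% of all windows) and the GC box GGGCGG in 15 (35.7% of all windows), of which 3 and 6 were lower. TATAAA was in 3 members, against 13.6% of all windows, and 1 of the 3 was lower. Each motif was searched on both strands, a match describes only the letters of the window, and no motif was tested against the calls.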

How the data were processed

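Total RNA of the hippocampus was sequenced in 5 Visudyne and 5 vehicle libraries whose preparation kit keeps strand (TruSeq Stranded Total RNA, per the labels' protocols). FastQC, Salmon and build mm10 are named, per the submitters' processing notes. The authors deposited whole numbers for 27343 genes, taken here as Salmon's estimated counts rounded by them and used as they stand; the 20 largest values were all multiples of 10. The sources used here do not give versions, annotation or strand setting. Symbols were found for 27053 identifiers in GENCODE M21, which also gave length and GC of the principal transcript (GC known for 15829 tested genes).

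The main test was edgeR's quasi-likelihood test, two-sided, on all genes kept by filterByExpr, with TMM scaling and group as the only term (edgeR 4.0.16 in R 4.3.3), with Benjamini-Hochberg adjusted p under 0.05 as a call. CPM were computed with TMM library sizes. Means are given ± SD, and SE is that of the log2 fold change. Psmb8, Psmb9 and Psmb10 were set against the subunits they replace as log2 ratios with a pseudocount of 0.5 counts.

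All 31 members and the related genes could be named, and values per library are given for the 3 members with the smallest p in each of 5 roles, plus Psmb5, Psmb7, Psma3, Psmc6 and Ubqln2, chosen after their values were seen. The 3 smallest p were to be named in each related list. Some genes that this rule picked are not reported here, and they stayed in every fit and count. Members and lists were chosen with earlier results of these data known. The alternatives were other scalings (DESeq2 size factors, upper quartile, total counts), other filters, DESeq2 1.42.0, limma-voom (limma 3.58.1) with and without weights, 1 surrogate variable (sva 3.50.0), GC or GC and length trends removed (loess, span 0.3), the GC slope as covariate and each library left out, with 4 more chosen after seeing the data.

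Same-group libraries differed by at least 12.3 in chi-square per degree of freedom, above sampling noise, and each was counted once. This difference does not show that each library came from its own mouse. The test was tested on simulated data for this comparison with 15938 genes: 51 of 100 genes changed 1.5-fold and 72 of 100 changed 2-fold were called, and 6 of 15738 unchanged genes. The simulated libraries carried no GC trend. These counts therefore do not give the rate of false calls in the real libraries, where GC slope and group nearly coincide. Exons of 8 members overlap another annotated gene, 2 of them on the same strand, and 3 members have named pseudogenes, so their counts are uncertain to that extent. Total counts per library were 24752362 to 41073906.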

Additional observations from a re-analysis of the deposited data

Results flagged for a closer look

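In 3 of 68 groups of 5 libraries examined, 1 library lay far from the other 4 by Dixon's criterion, which chance meets in about 1 in 20 groups. Psma2, an alpha ring subunit, measured 62.3 CPM in vehicle 9 and 66.9 to 68.1 CPM in the other vehicle libraries. Psmb7, the catalytic subunit that cuts after basic residues, measured 49.3 CPM in Visudyne 1 and 58.6 to 60.5 CPM in the other Visudyne libraries. The log2 ratio of Psmb9 to Psmb6 was -9.25 in vehicle 10 and -6.69 to -5.89 in the other vehicle libraries, and Psmb9 had 0 counts in vehicle 10. Visudyne 1 and vehicle 9 are also the libraries with the most extreme GC slopes, -0.0519 and 0.0394, whose part in these values was not tested.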

How the results depend on the processing

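Against 14 members lower, 13 were lower with DESeq2 size factors, 15 with upper-quartile factors, 14 by DESeq2, 14 by limma-voom, 15 with library weights, 11 without the low-count filter, 15 with a filter of 1 CPM in 5 libraries and 13 without the choroid-high libraries; 0 were higher in each. Counts of lower members that moved were 0 with 1 surrogate variable (10 at an unadjusted p under 0.05) and 0 with the GC slope as covariate. Over all genes 0 were lower in either fit. The surrogate variable had an r of 0.97 with the libraries' GC slopes. Members lower were 2 with the GC trend removed (1.30% of all genes) and 3 with GC and length removed (1.38%). They were 6 with GC of the longest transcript (1.76%), 5 with pooled GC (1.69%) and 0 without both extreme-slope libraries (0.264%). Leaving out 1 library gave 0 to 15 lower (0.031% to 17.9% of all genes). The members' median of -0.18 moved to -0.38 with total counts and -0.037 with the GC slope as covariate. The causes were not tested. Related genes, 9 lower and 5 higher, gave 16 and 1 with total counts, and 0 to 11 lower and 0 to 10 higher without 1 library. No paired analysis was possible because the replicate numbers run from 1 to 5 in one group and 6 to 10 in the other.

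Of the members called lower, Psmb5, Psmc3, Psmd3 and Psmd4 changed sign with the GC slope as covariate, and Psmd7 with pooled GC. Their log2 fold changes in the main fit were -0.62, -0.49, -0.71, -0.62 and -0.18. Log2 fold changes that changed sign were thus mostly, but not only, of members near 0. With total counts they were Psma1 -0.15, Psma3 -0.039, Psma4 -0.18, Psmc6 -0.07, Psmd1 -0.17, Psmd6 -0.18, Psmd11 -0.19, Psmd12 -0.11 and Psmd14 -0.11. With 1 surrogate variable they were Psma1 -0.058, Psma3 -0.013, Psma4 -0.055, Psmb2 0.052, Psmd6 -0.055, Psmd12 -0.011 and Psmd14 -0.038. With the GC slope as covariate they were Psma1 -0.10, Psma3 -0.074, Psma4 -0.069, Psmb2 0.19, Psmb5 0.18, Psmc1 0.0088, Psmc3 0.044, Psmc6 -0.037, Psmd3 0.040, Psmd4 0.036, Psmd6 -0.076, Psmd12 -0.032 and Psmd14 -0.089. With the GC trend removed they were Psma1 -0.13, Psma3 -0.10, Psma4 -0.12, Psmc6 -0.21, Psmd1 -0.049, Psmd6 -0.041, Psmd11 -0.025, Psmd12 -0.075, Psmd13 0.051 and Psmd14 -0.11. With GC and length removed they were Psma1 -0.11, Psma3 -0.10, Psma4 -0.096, Psmc6 -0.21, Psmd1 -0.056, Psmd6 -0.025, Psmd11 -0.027, Psmd12 -0.063, Psmd13 0.064 and Psmd14 -0.098. With GC of the longest transcript they were Psma1 -0.12, Psma3 -0.079, Psma4 -0.11, Psmc6 -0.18, Psmd1 -0.027, Psmd6 -0.019, Psmd11 -0.25, Psmd13 0.077 and Psmd14 -0.095. With pooled GC they were Psma1 -0.092, Psma3 -0.064, Psma4 -0.070, Psmc6 -0.12, Psmd1 -0.039, Psmd6 -0.044, Psmd7 0.078, Psmd11 -0.052, Psmd12 -0.0065 and Psmd14 -0.18. Without the extreme-slope libraries they were Psma1 -0.019, Psma4 -0.018 and Psmd6 -0.021, without the choroid-high libraries Psma6 0.014 and Psmd11 -0.016, and with DESeq2 size factors Psma6 0.0034. Without 1 library, ranges crossing 0 were Psma1 -0.00022 to 0.073, Psma4 -0.029 to 0.047, Psma6 -0.056 to 0.026, Psmd1 -0.0041 to 0.042, Psmd6 -0.022 to 0.044 and Psmd11 -0.021 to 0.039. The ratio differences then ran from -0.070 to 0.21 for Psmb8 to Psmb5 and from -0.19 to 0.65 for Psmb9 to Psmb6, the latter below 0 without vehicle 10, and from -1.01 to -0.63 for Psmb10 to Psmb7.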
